A study of Mus musculus with 2 samples.

Results

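The expressed mouse genes named Zfp followed by a number alone were described, in bone marrow progenitors after withdrawal of, and in the presence of, the ligand that holds Hoxa9 in the nucleus. They were all entries of the deposited gene table with such a name and at least 1 FPKM in either condition, except Zfp36, which the selection left out by name. FPKM is the number of sequenced fragments of a gene scaled by transcript length and by library size. Of 339 entries with such a name 247 met the threshold, out of 23235 entries in the table and 11022 of at least 1 FPKM. The genes were selected on their FPKM values in both conditions, so the counts, medians and differences below are descriptions of the chosen genes and give no statement about the family at large.

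The conditions were EtOH and 4OHT. EtOH cells were washed 3 times and cultured for 72 h in ethanol, the solvent, and 4OHT cells were washed in the same way and cultured for 72 h in 100 nM 4-hydroxytamoxifen. Both came from lineage-depleted bone marrow of C57B6 mice, carried 2 retroviral vectors, MIGR1-Flag-Meis1 and, for the fusion protein, MIGR1-HA-Hoxa9-ER, grew with IL3 and had been transformed in continuous 4OHT. In EtOH the fusion protein is lost from the nucleus, per the labels. Hoxa9 and Meis1 RNA can come from the vectors as well as from the cells, so neither level checks the labels: Hoxa9 had 892 FPKM in EtOH and 476 FPKM in 4OHT. Each condition had 1 FPKM value per gene made from 2 biological replicates. No replicate error or test across samples could therefore be had. A gene is called, and is said to have risen or fallen in EtOH, where its q-value is 0.05 or less in the authors' deposited table. FPKM values summed to 591496 in EtOH and 544802 in 4OHT. Read totals are unknown.

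Most proteins named Zfp bind DNA through C2H2 zinc fingers, short loops in which a pair of cysteines and a pair of histidines hold a zinc ion and neighbouring residues read a few bases of DNA. Tandem fingers are joined by a conserved linker. Many of these proteins also carry a KRAB domain, which recruits the corepressor Trim28 and, through it, the H3K9 methyltransferase Setdb1 and HP1 proteins, and so silences retroelements and keeps imprints. KRAB zinc finger genes arose by tandem duplication and lie in clusters, where neighbours resemble each other in sequence. Others lack KRAB and act as activators, as members of chromatin complexes, or on RNA.

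The repeat is shown here for Zfp52 and Zfp760, neighbours on chromosome 17 called in opposite directions, because likeness between fingers is what can make reads hard to assign to 1 gene of the family. The coding bases are given from GENCODE M21 for the first classical finger of a fixed spacing that the full linker follows directly. It need not be the first classical finger of the protein. The codons of the 2 cysteines and 2 histidines are in capitals.
Zfp52: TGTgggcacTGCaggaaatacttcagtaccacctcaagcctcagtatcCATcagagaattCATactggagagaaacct
Zfp760: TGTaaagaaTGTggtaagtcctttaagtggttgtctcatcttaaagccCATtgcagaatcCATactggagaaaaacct
These stretches cover residues 188 to 213 of Zfp52 and 210 to 235 of Zfp760, and 45 of their 78 bases are identical. The choice of stretch required the 2 cysteines, the 2 histidines and the linker residues in both genes. Part of this likeness was therefore built in. Only 0.869% of the 50-base words of Zfp52 transcripts and 0.577% of those of Zfp760 occurred in transcripts of any other gene. Over the 247 genes, 94 shared no such word with another gene and 32 shared over 10%. Beyond the fingers, the starts of called genes are shown by the bases before the transcription start of 4 of them, further below.

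The Zfp genes were expressed at low levels, and their levels were close in both conditions. The median was 4.29 FPKM in EtOH and 4.26 FPKM in 4OHT, with quartiles of 1.85 and 7.67 FPKM in EtOH and 2.19 and 7.80 FPKM in 4OHT. Other genes of at least 1 FPKM had medians of 12.8 FPKM in EtOH and 13.0 FPKM in 4OHT. Of the 247 genes, 9 reached 20 FPKM in EtOH and 9 did so in 4OHT. Their summed level was 1515 FPKM in EtOH and 1606 FPKM in 4OHT, which is 0.256% and 0.295% of all FPKM.

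Of the 247 genes, all of which the authors tested, 3 rose and 12 fell in EtOH, and 232 did not pass. The called share was 6.07%, beside 22.7% of all tested genes of at least 1 FPKM and 22.5% of all tested genes. Of these tested genes of at least 1 FPKM 1322, or 12%, rose and 1168, or 10.6%, fell. The Zfp count is small and moves with the rule: it was 1 risen and 4 fallen with the q-value limit at 0.01, where 16.4% of tested genes of at least 1 FPKM were called. It was 3 risen and 7 fallen over the 229 Zfp genes that reached 1 FPKM in each condition, an alternative chosen after seeing the data. Of the 17 genes that met the threshold in 4OHT alone, which could only have been lower in EtOH, 5 fell.

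Differences were small across the Zfp genes. Each log2 change compares EtOH with 4OHT after 1 was added to both FPKM values. It is positive where EtOH was higher, and the added 1 shrinks the change of genes with low levels. The median was -0.08, with quartiles of -0.22 and 0.03, and the range ran from -0.79 to 0.71. All other genes of at least 1 FPKM had a median of -0.05 and quartiles of -0.25 and 0.18. The median size of the difference, regardless of sign, was 0.14 on the log2 scale for Zfp genes and 0.23 for the others. On this scale 1 Zfp gene was at least 1.5-fold higher and 5 were at least 1.5-fold lower, beside 9.55% and 6.73% of all genes of at least 1 FPKM. No Zfp gene differed 2-fold, where 5.11% of all genes of at least 1 FPKM were 2-fold higher and 2.38% were 2-fold lower. With no pseudocount, 6 Zfp genes were at least 2-fold lower and 0 at least 2-fold higher, which is 2.43% of them, beside 10.3% of the other genes. These were Zfp566, Zfp3, Zfp938, Zfp442 and Zfp428, which fell, and Zfp72, with 0.498 FPKM in EtOH, 1.02 FPKM in 4OHT and q = 0.0839 in the authors' deposited table. Of them Zfp3, Zfp442, Zfp428 and Zfp72 met the threshold in 4OHT alone, so the selection fixed their direction. Nothing is read from the split of directions here.

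Lower values in EtOH outnumbered higher ones. Of the 247 genes 169, or 68.4%, were lower, beside 56.8% of the other genes. The selection fixed part of this split, since 17 of the 247 genes met the threshold in 4OHT alone and 1 in EtOH alone. Other genes passed the same threshold. Over the 229 Zfp genes of at least 1 FPKM in each condition the median change was -0.07. The split also rests on the scaling. After EtOH values were multiplied so that both conditions had equal FPKM sums, 82.2% of Zfp genes and 68.8% of other genes were lower. With the median change of genes of at least 5 FPKM set to 0, 57.5% of Zfp genes and 49.3% of other genes were lower. The scaling to the FPKM sum shifts changes of abundant genes by -0.12 on the log2 scale. The Zfp median lay under that of the other genes by 0.03 as deposited, by 0.02 after scaling to the sum and by 0.04 after centring, in log2 units.

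**Figure D1:**
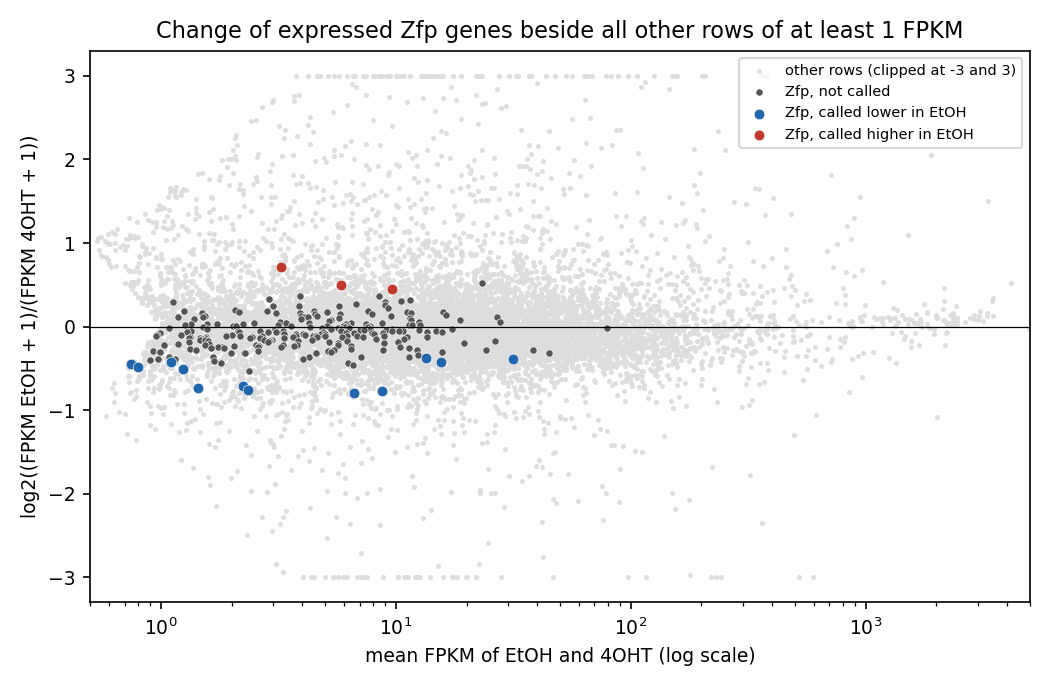
Each point is 1 gene, with its mean FPKM of both conditions on a log axis and its log2 change, positive where EtOH was higher; other genes, in grey, are drawn at the edge where they lie beyond the axis. The 247 Zfp genes sit between -0.79 and 0.71, with 3 called higher in red and 12 called lower in blue.

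The called shares of Zfp genes are given by level. Under a mean of 2 FPKM 5 of 58 Zfp genes were called, or 8.62%, beside 31.1% of other tested genes and 29.9% of all tested genes in this range. These 5 (Zfp941, Zfp3, Zfp442, Zfp760 and Zfp428) are the 5 called genes that met the threshold in 4OHT alone, so the selection fixed their direction, and nothing is read from the share in this range. Between 2 and 5 FPKM 3 of 81 were called, or 3.70%, beside 22.4% of the others and 21.5% of all. Between 5 and 20 FPKM 6 of 99 were called, or 6.06%, beside 19.8% of the others and 19.4% of all. At 20 FPKM or more 1 of 9 was called, or 11.1%, beside 24.8% of the others and 24.7% of all. In the 3 ranges from 2 FPKM up the share was lower in the Zfp genes than in the other genes, a difference that was not tested. Within these ranges the median size of the difference was 0.19, 0.13, 0.12 and 0.27 for Zfp genes, and 0.31, 0.23, 0.21 and 0.22 for the others, in log2 units. The 9 most abundant Zfp genes thus had a median size above that of other abundant genes, although 1 of them was called.

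**Figure D2:**
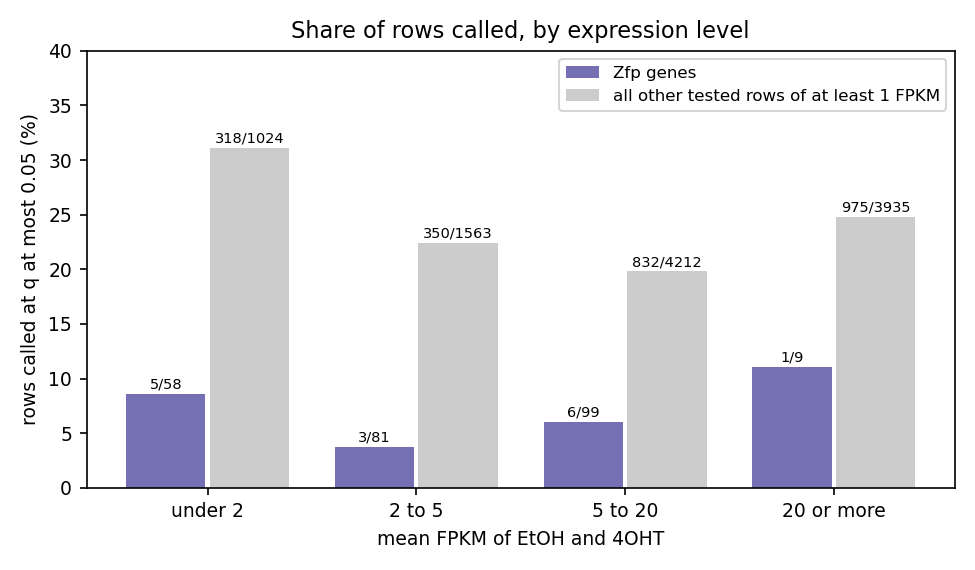
Bars give the percentage of tested genes called in the authors' deposited table (q-value up to 0.05), for Zfp genes and for all other tested genes of at least 1 FPKM, in 4 ranges of mean FPKM. The fractions over the bars are called over tested genes; the Zfp bars run from 3.70% to 11.1% and the others from 19.8% to 31.1%.

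The 3 genes that rose were Zfp597, Zfp52 and Zfp710. Zfp597, whose human counterpart is an imprinted gene, had 4.27 FPKM in EtOH and 2.21 FPKM in 4OHT, and a log2 change of 0.71. Its q-value, taken from the authors' deposited table, was 5.81e-05. It lies at chromosome 16, 3861544 to 3872374 (mm9, as all gene positions here). Zfp52, a KRAB gene with 14 fingers, had 7.01 FPKM in EtOH and 4.68 FPKM in 4OHT (log2 change 0.49), and the authors' deposited table gave it q = 0.0226. Zfp710, with 11 fingers and no KRAB pattern, had 11.3 FPKM in EtOH and 7.98 FPKM in 4OHT (log2 change 0.45), and q = 0.0280 in the authors' deposited table. The locus of Zfp710 overlaps LOC100859962, so reads of these entries could not be told apart with certainty. Of the risen genes Zfp597 alone reached 1.5-fold, by the ratio of its FPKM values and by the log2 change.

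The largest falls were in Zfp187 and Zfp703. Zfp187, now named Zscan26, encodes a protein with a SCAN domain, through which such proteins pair, and it had 4.58 FPKM in EtOH and 8.65 FPKM in 4OHT. Its log2 change was -0.79 and its q-value in the authors' deposited table was 3.62e-05. It lies at chromosome 13, 21534044 to 21545596, and its locus overlaps the microRNA entry Mir1896. Zfp703, a transcriptional repressor whose human counterpart is an oncogene in breast cancer, had 6.17 FPKM in EtOH and 11.3 FPKM in 4OHT. Its log2 change was -0.78 (q = 0.00187 in the authors' deposited table), and it lies at chromosome 8, 28087808 to 28091934.

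Among KRAB genes 5 fell. Zfp938 had 1.49 FPKM in EtOH and 3.22 FPKM in 4OHT (log2 change -0.76), and Zfp566 had 1.45 FPKM in EtOH and 3.00 FPKM in 4OHT (-0.71). Zfp760 had 0.858 FPKM in EtOH and 1.63 FPKM in 4OHT (-0.50). Zfp442 had 0.502 FPKM in EtOH and 1.10 FPKM in 4OHT (-0.48), and Zfp941 had 0.797 FPKM in EtOH and 1.40 FPKM in 4OHT (-0.42). All 5 were low, and 3 of them met the threshold of 1 FPKM in 4OHT alone. Their q-values in the authors' deposited table lay between 0.00406 for Zfp938 and 0.0473 for Zfp941. The own levels of Zfp442 and Zfp566 are uncertain, since 32.1% and 15.6% of their 50-base words also occur in other genes; for Zfp442, 26.2% are shared with Zfp937.

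The other genes that fell held no KRAB pattern. Zfp706, a protein of 76 residues that in mouse embryonic stem cells promotes exit from self-renewal, had 27.1 FPKM in EtOH and 36.0 FPKM in 4OHT (log2 change -0.39). Zfp609, which in mouse neural progenitors works with the Integrator complex and the cohesin loader, had 11.5 FPKM in EtOH and 15.3 FPKM in 4OHT (-0.38). Zfp828, now named Champ1, a protein of chromosome alignment in mitosis, had 13.1 FPKM in EtOH and 18.0 FPKM in 4OHT (-0.43). These more abundant genes fell by less than 1.5-fold. For them the authors' deposited table lists q = 0.0277 (Zfp706), 0.0281 (Zfp609) and 0.0226 (Zfp828). Zfp428, with 1 classical finger, had 0.830 FPKM in EtOH and 2.04 FPKM in 4OHT (-0.73). Zfp3, with 13 fingers, had 0.475 FPKM in EtOH and 1.01 FPKM in 4OHT (-0.45) and q = 0.0485 in the authors' deposited table, the closest to the threshold among the 15 called genes of at least 1 FPKM.

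**Figure D3:**
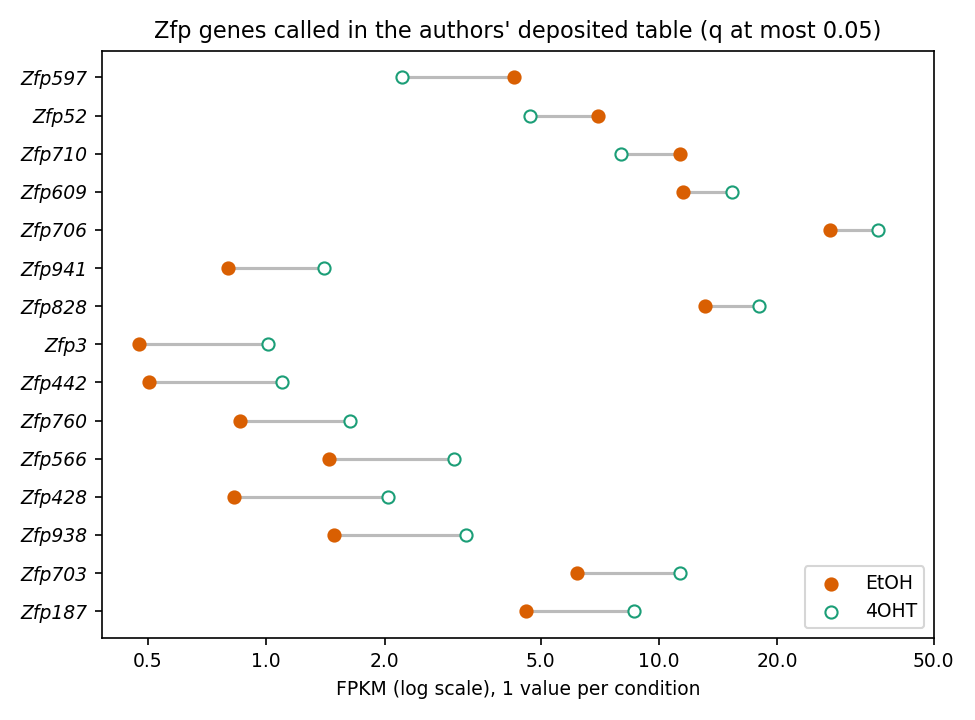
Filled points give the FPKM value in EtOH and open points the value in 4OHT, on a log axis, for the 15 Zfp genes called in the authors' deposited table, ordered by log2 change. Zfp597, Zfp52 and Zfp710 lie higher in EtOH, and the other 12 lie lower; each point is 1 value with no replicate error.

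At the threshold, Zfp3, Zfp72 and Zfp28 lay just inside, with 0.475, 0.498 and 0.880 FPKM in EtOH and 1.01, 1.02 and 1.03 FPKM in 4OHT. Zfp438, Zfp712 and Zfp945 lay just outside, with 0.930, 0.964 and 0.423 FPKM in EtOH and 0.989, 0.905 and 0.939 FPKM in 4OHT. Of the 92 Zfp entries under the threshold, 17 were listed at 0 in both conditions and 29 were tested. Among those tested 1 rose and 4 fell, all named after their values were seen. Of all tested genes 22.5% were called in either direction, and nothing is read from the split of so few genes. Zfp831 rose, with 0.708 FPKM in EtOH and 0.389 FPKM in 4OHT. Zfp599, Zfp287, Zfp945 and Zfp946 fell, with 0.327 to 0.423 FPKM in EtOH and 0.709 to 0.939 FPKM in 4OHT.

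Protein classes were read from translated GENCODE M21 coding sequences, which 244 of the 247 genes had. Of these, 107 held the pattern of a KRAB A box, and 8 that of a SCAN domain without that of KRAB. Another 115 held at least 2 classical C2H2 fingers and neither pattern, and 14 held fewer. A pattern can miss a domain, so the other C2H2 genes can include KRAB or SCAN genes, which limits comparisons of classes. Zfp192, now named Zkscan8, matched neither pattern. KRAB genes had a median of 12 fingers, and Zfp142 had the most of all, 36. Of all Zfp entries with a coding sequence, 67.7% of the 158 KRAB genes reached 1 FPKM, and so did 80.4% of the 143 other C2H2 genes. Expressed KRAB genes had medians of 2.77 FPKM in EtOH and 3.00 FPKM in 4OHT. Those of other C2H2 genes were 5.75 FPKM in EtOH and 5.76 FPKM in 4OHT.

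Calls were counted by number of classical fingers and by class. Of 15 genes with 0 to 1 fingers 26.7% were called. The share was 3.70% of 27 genes with 2 to 4 fingers, 5.13% of 78 with 5 to 9 and 4.84% of 124 with 10 or more. Of 107 KRAB genes 1 rose and 5 fell, 5.61% in all, with a median change of -0.08. Of 115 other C2H2 genes 2 rose and 2 fell, 3.48% in all, with a median of -0.06. Of 8 SCAN genes Zfp187 fell, and 7 of the 8 had values below 0, with a median of -0.25. Of the 14 genes with few or no classical fingers 0 rose and 4 fell (Zfp703, Zfp428, Zfp706 and Zfp609), which is 28.6% beside the 22.7% of all tested genes, and their median was -0.24. This last group is small and depends on its definition: with genes of 0 classical fingers alone it held 4 genes, of which Zfp703 fell. Differences between classes were not tested.

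**Figure D4:**
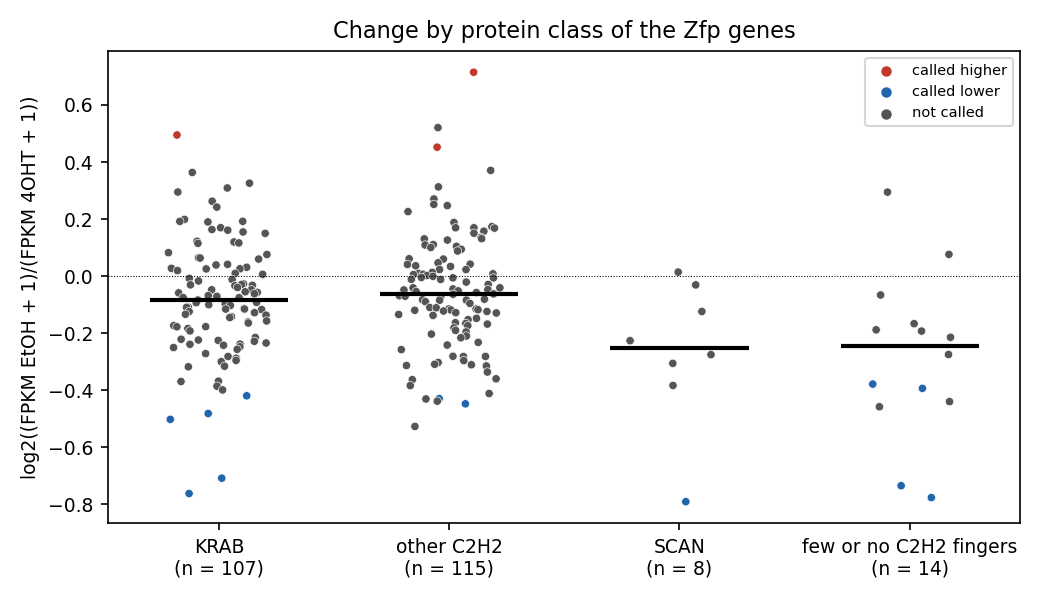
Each point is 1 Zfp gene, with its log2 change on the vertical axis (positive where EtOH was higher) and spread sideways for legibility; black bars are medians. The KRAB and other C2H2 genes centre at -0.08 and -0.06, and the SCAN genes and those with few or no classical fingers at -0.25 and -0.24.

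Zfp genes with roles in RNA, ribosomes or mitosis included the most abundant of the family. Zfp207, which carries Bub3 to kinetochores, had 78.6 FPKM in EtOH and 79.2 FPKM in 4OHT, the highest Zfp level in both conditions, and q = 0.984 in the authors' deposited table. Zfp106, an RNA-binding protein, had 39.8 FPKM in EtOH and 49.6 FPKM in 4OHT, and q = 0.0966 in the authors' deposited table. Zfp330, a nucleolar protein, had 34.6 FPKM in EtOH and 42.1 FPKM in 4OHT. Zfp91, a ubiquitin ligase of the non-canonical NF-kB pathway, had 24.8 FPKM in EtOH and 28.1 FPKM in 4OHT. Zfp598, the ligase that marks collided ribosomes, had 18.2 FPKM in EtOH and 20.9 FPKM in 4OHT. Zfp622, a factor of large ribosomal subunit maturation, had 17.1 FPKM in EtOH and 15.5 FPKM in 4OHT. Zfp259, now Zpr1, had 15.3 FPKM in EtOH and 16.1 FPKM in 4OHT. Of the 13 genes of this list that were in the table, 0 rose, Zfp706 fell and 12 did not pass, with a median change of -0.17. The called share was 7.69%, beside 6.07% of all 247 Zfp genes and 22.7% of all tested genes of at least 1 FPKM.

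Zfp genes known as partners of chromatin complexes, or as DNA-binding regulators without KRAB, had a median change of 0.00. Of 15 expressed genes of this list 0 rose and 0 fell, beside called shares of 6.07% in all 247 Zfp genes and 22.7% in all tested genes of at least 1 FPKM. With so few genes and so low a Zfp share, nothing particular to the list is read from this count. Zfp217, a partner of the CtBP corepressor, had 28.3 FPKM in EtOH and 27.1 FPKM in 4OHT. Zfp384 had 16.8 FPKM in EtOH and 14.8 FPKM in 4OHT, and Zfp219 had 14.6 FPKM in EtOH and 15.2 FPKM in 4OHT. Zfp687, which binds the chromatin reader Zmynd8, had 12.2 FPKM in EtOH and 10.9 FPKM in 4OHT. Zfp238, now Zbtb18, had 12.3 FPKM in EtOH and 12.7 FPKM in 4OHT. Zfp143, an activator at small nuclear RNA promoters, had 7.60 FPKM in EtOH and 7.63 FPKM in 4OHT. Zfp277, which in mouse fibroblasts helps to repress the Cdkn2a locus, had 8.46 FPKM in EtOH and 9.25 FPKM in 4OHT; both were named after their values were seen.

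Genes known in mouse for silencing retroviruses or retroelements, or for keeping imprints, had a median change of -0.06. Of 8 expressed genes 0 rose and 0 fell, from which nothing particular to them is read beside the 6.07% of all Zfp genes. Zfp809, which binds the primer binding site of murine leukaemia viruses, had 6.42 FPKM in EtOH and 6.79 FPKM in 4OHT. Zfp445 and Zfp57, which keep imprinted methylation, had 17.2 and 8.26 FPKM in EtOH, and 17.6 and 9.61 FPKM in 4OHT. Zfp932 had 10.3 FPKM in EtOH and 12.4 FPKM in 4OHT, with 37.0% of its words shared with other genes. Zfp809 and Zfp57 were named after their values were seen. Of 9 expressed genes with described roles in blood cells, Zfp710 rose, Zfp609 fell and 7 did not pass, a called share of 22.2% beside the 22.7% of all tested genes of at least 1 FPKM. Zfp608 of this list had 9.49 FPKM in EtOH and 11.0 FPKM in 4OHT and did not pass. Zfp521 and Zfp423, regulators of progenitors and B cells, were under 0.01 FPKM in both conditions, and were named after their values were seen.

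Abundant Zfp genes outside these lists were Zfp422, with 28.0 FPKM in EtOH and 25.9 FPKM in 4OHT, and Zfp146, made almost wholly of fingers, with 21.7 FPKM in EtOH and 26.6 FPKM in 4OHT. Neither passed. Zfp414, named after its values were seen, had the largest positive difference among genes that did not pass, with 27.5 FPKM in EtOH and 18.9 FPKM in 4OHT (log2 change 0.52, q = 0.0930 in the authors' deposited table); 26.3% of its words were shared with other genes. Zfp239 had the largest negative one, with 1.77 FPKM in EtOH and 2.99 FPKM in 4OHT (-0.53).

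By position, 64 of the 247 genes lay on chromosome 7, 30 on chromosome 17 and 23 on chromosome 13. Runs of at least 3 Zfp entries with gaps of at most 500 kb numbered 30, and they held 143 of the expressed genes. Genes with the KRAB pattern, which can miss a domain, made up 60.1% of the genes inside runs and 20.2% of the 104 outside. Inside runs 2 genes rose and 6 fell, 5.59% in all, and outside them 1 rose and 6 fell, 6.73% in all. Of all tested genes of at least 1 FPKM 22.7% were called. Both groups had a median change of -0.08. With 8 of the 143 genes called, the calls cannot show whether the genes of a run moved together. The largest, on chromosome 17 from 21145905 to 23736454, held 20 entries and 15 expressed genes, of which 10 were lower in EtOH and 5 higher. In it Zfp52 rose and Zfp760 fell, with 145 kb between them. Zfp948, between them and named after its values were seen, had 1.08 FPKM in EtOH and 1.09 FPKM in 4OHT. The run on chromosome 13 from 67139530 to 67931922, with 17 entries that all held a KRAB pattern, had 12 expressed genes and 0 calls. In the runs of chromosome 7, Zfp566 fell among 11 expressed genes of one and Zfp428 among 11 of another. Called or not, 9 genes of the first and 10 of the second were lower in EtOH, each run with a median change of -0.12. Of all Zfp genes 68.4% were lower, and these differences were not tested.

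**Figure D5:**
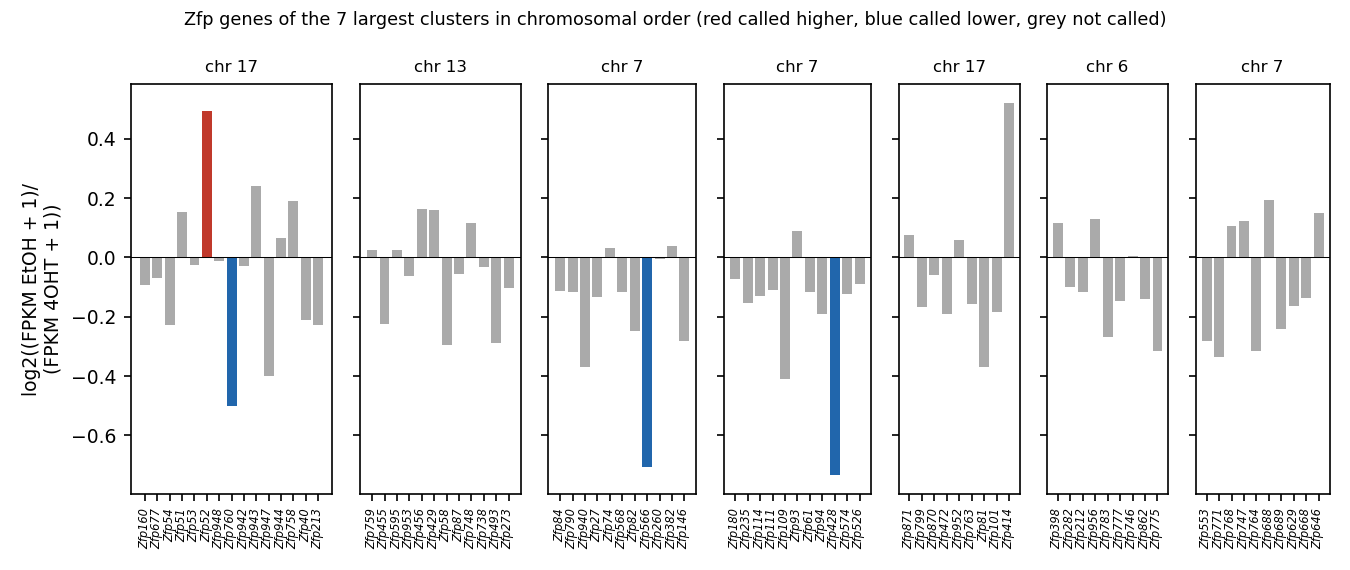
Bars give the log2 change of each expressed Zfp gene, positive where EtOH was higher, in the 7 runs with at least 10 Zfp entries, in chromosomal order within each run. Called genes are coloured: Zfp52 higher, and Zfp760, Zfp566 and Zfp428 lower, each beside neighbours that were not called.

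RefSeq promoters (GRCm38.p6) were found for 204 genes, and the 250 bases before the start were read. They held a median of 55.2% G and C, beside 52.4% in all 32851 promoters of the table. Their median ratio of observed to expected CpG was 0.652, beside 0.373 in all promoters. The letters TGACAG, the core bound by Meis proteins, occurred on either strand in 26.4% of the 258 promoters of Zfp genes and in 15.9% of all promoters. TGATTNAT, a joint site of Pbx and Hox proteins that shares its first 3 letters with the other motif, occurred in 0.775% of Zfp promoters and in 2.82% of all promoters. Some genes have several, overlapping promoter windows. By gene, TGACAG was in at least 1 window of 28.4% of the 204 Zfp genes and of 18.0% of all 27025 genes with a promoter. All promoters were taken regardless of FPKM, while the Zfp genes had at least 1 FPKM. The 2 sets are therefore not matched for expression. Zfp703, Zfp609, Zfp706 and Zfp828, which fell, had no promoter to read. TGACAG was there in 2 of the 8 other genes that fell, or 25%, and in 1 of 3 that rose, shares that rest on few genes. These are matches of letters and not sites. They are printed for 4 genes, 5′ to 3′ with matches in capitals: that of Zfp597, the largest rise, with 0 matches, and those of Zfp710, Zfp187 and Zfp938, each with at least 1. Zfp597 is chr16:3872375-3872624 on the minus strand, Zfp710 chr7:80024564-80024813 on the plus strand, Zfp187 chr13:21453728-21453977 and Zfp938 chr10:82241276-82241525, both on the minus strand (GRCm38.p6).
Zfp597: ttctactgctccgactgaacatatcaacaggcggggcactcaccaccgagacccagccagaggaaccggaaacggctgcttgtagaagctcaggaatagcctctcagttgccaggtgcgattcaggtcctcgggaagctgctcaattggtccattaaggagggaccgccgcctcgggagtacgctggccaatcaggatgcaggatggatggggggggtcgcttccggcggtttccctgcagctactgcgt
Zfp710: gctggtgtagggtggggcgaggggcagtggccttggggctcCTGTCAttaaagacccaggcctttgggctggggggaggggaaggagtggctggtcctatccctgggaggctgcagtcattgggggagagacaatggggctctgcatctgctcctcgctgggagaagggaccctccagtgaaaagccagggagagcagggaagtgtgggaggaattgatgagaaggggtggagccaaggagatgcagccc
Zfp187: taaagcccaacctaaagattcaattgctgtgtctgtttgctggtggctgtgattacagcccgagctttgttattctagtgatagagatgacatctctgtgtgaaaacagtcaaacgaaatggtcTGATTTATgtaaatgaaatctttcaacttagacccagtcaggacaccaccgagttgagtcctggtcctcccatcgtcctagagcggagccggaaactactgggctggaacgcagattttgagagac
Zfp938: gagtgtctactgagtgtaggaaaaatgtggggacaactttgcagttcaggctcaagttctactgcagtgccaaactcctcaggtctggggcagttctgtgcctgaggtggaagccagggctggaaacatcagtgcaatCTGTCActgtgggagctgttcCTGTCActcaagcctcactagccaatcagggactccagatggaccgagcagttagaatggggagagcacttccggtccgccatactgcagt
The promoters of Zfp710 and Zfp938 hold TGACAG on the opposite strand, 1 match and 2 matches, and that of Zfp187 holds TGATTNAT on the strand shown.

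Genes of the corepressor machinery were given from 2 lists. Of 20 genes of the Trim28, H3K9 methylation and HUSH list 0 rose and 3 fell, with a median change of -0.16, beside 10.6% of tested genes of at least 1 FPKM that fell. Trim28, the corepressor of KRAB proteins, had 64.9 FPKM in EtOH and 85.1 FPKM in 4OHT (log2 change -0.39), and q = 0.0287 in the authors' deposited table. The HP1 genes Cbx3 and Cbx1 had 121 and 26.1 FPKM in EtOH, and 166 and 35.8 FPKM in 4OHT, and also fell. Setdb1 did not pass, with 13.5 FPKM in EtOH and 17.6 FPKM in 4OHT. Of 13 genes of the NuRD deacetylase complex 0 rose and 3 fell, with a median of -0.24 and 23.1% called, beside 22.7% of all tested genes of at least 1 FPKM. These were Mbd2, with 63.6 FPKM in EtOH and 104 FPKM in 4OHT (-0.69), and Rbbp7 (-0.41) and Chd3 (-0.40).

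Other zinc finger name families were set beside the Zfp genes. Of 31 expressed Zbtb genes, which join C2H2 fingers to a BTB domain, 2 rose and 1 fell, with a median change of -0.04 and 9.68% called, beside 22.7% of all tested genes of at least 1 FPKM. Of 12 Zscan and Zkscan genes 1 rose and 2 fell, with a median of -0.01 and 25% called. Of 15 Zc3h genes, whose CCCH fingers bind RNA, 1 rose and 3 fell, with a median of -0.14 and 26.7% called. Of 17 Zdhhc genes, palmitoyltransferases of another zinc finger type, 1 rose and 2 fell, with a median of -0.17 and 17.6% called. These families are small, and differences from the Zfp genes were not tested.

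Markers of maturing blood cells differed between the conditions. All 7 neutrophil markers and all 7 eosinophil, basophil and mast cell markers rose, with summed levels of 16230 and 7894 FPKM in EtOH, and 127 and 841 FPKM in 4OHT. Of 7 progenitor markers 3 rose (Ptprc, Gata2 and Spn) and 2 fell (Cd34 and Flt3), while Kit and Myb did not pass. Gata2 had 122 FPKM in EtOH and 71.1 FPKM in 4OHT, and Flt3 had 0.239 FPKM in EtOH and 14.5 FPKM in 4OHT. Of 7 monocyte markers 5 rose, among them Itgam with 112 FPKM in EtOH and 16.2 FPKM in 4OHT. Emr1 fell, with 102 FPKM in EtOH and 202 FPKM in 4OHT, and Cd68 did not pass. Summed levels were 536 FPKM in EtOH and 517 FPKM in 4OHT for the progenitor markers, and 299.8 FPKM in EtOH and 279.9 FPKM in 4OHT for the monocyte markers. Of 6 T cell markers 0 rose and Lck fell, with 1.60 FPKM in sum in EtOH and 3.67 FPKM in 4OHT, and Cd3e, Cd3g and Cd4 were listed at 0 in both. Of 6 B cell markers 0 rose and 0 fell, with 1.72 FPKM in sum in EtOH and 1.13 FPKM in 4OHT, and Pax5, Ebf1 and Ms4a1 were listed at 0 in both. Of 6 stromal and endothelial markers 0 rose and Pdgfrb fell, with 238 FPKM in sum in EtOH and 252 FPKM in 4OHT, nearly all of it Pecam1. Col1a1, Col1a2, Lepr and Cdh5 had at most 0.190 FPKM in either condition. The part of these marker differences in the Zfp values was not tested. In bulk RNA fewer cells of a type and less RNA per cell cannot be told apart.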

How the data were processed

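RNA of 2 conditions, EtOH and 4OHT, was sequenced. Cuffdiff 2.0.2, Bowtie2 2.0.0.7 and CASAVA 1.8.2 are named, with the mm9 build, in the submitters' processing notes. The sources used here give no annotation, strand setting or scaling. Per the file headers, the authors deposited 1 FPKM value per condition, a p-value and a q-value per gene. Adjusting the p-values by the Benjamini-Hochberg method returned the deposited q-values over the 11865 tested entries to within 1.70e-06. Read totals cannot be had from FPKM values, so depth is unknown and no counting interval is given. How the 2 biological replicates entered the test is not given in the sources used here.

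From the FPKM values a log2 change with a pseudocount of 1 was computed with pandas 2.3.3. Steps were tested on simulated data. The genes and lists were chosen with earlier results of these data known. Older symbols were matched through RefSeq for 11 genes. Domains were read by fixed patterns from GENCODE M21 coding sequences, translated with Biopython 1.88, because no protein table was used here; a classical finger had 12 residues between its cysteine and histidine pairs. Words of 50 bases were compared on the transcript strand. By a rule, genes named were called Zfp genes, the 8 most abundant, 3 genes on each side of the threshold, list members called or of at least 10 FPKM, and called corepressor genes; other names were chosen after their values were seen. Alternatives were pseudocounts, filters, scalings, call rules, gaps and finger numbers.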

Additional observations from a re-analysis of the deposited data

How the results depend on the processing

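The median log2 change of the Zfp genes stayed below 0 under every pseudocount, filter and scaling tried, between -0.18 after scaling to equal FPKM sums and -0.03 after centring. The summed FPKM in EtOH over that in 4OHT stayed below 1, between 0.869 and 0.988 under those scalings. Counts were small and moved. With a pseudocount of 0.1, 17 genes were at least 1.5-fold lower instead of 5, and with one of 5, 0 were 1.5-fold lower and 0 higher instead of 5 and 1, by the pseudocount's own construction. With at least 5 FPKM in either condition, which left 112 genes, 5 were called lower, 0 were 1.5-fold higher and 2 were 1.5-fold lower. With at least 1 FPKM in both conditions, an alternative chosen after seeing the data, 7 were called lower. At a q-value of at most 0.01, 1 was called higher and 4 lower, and at an unadjusted p of at most 0.05, 6 were called higher and 24 lower. With a ratio of at least 1.5 added to the q-value, 1 was called higher and 9 lower. With 1 or more classical fingers counted as C2H2, 1 gene of the remaining 4 was called instead of 4 of 14. Leaving out the 32 genes that share over 10% of their words left 3 risen and 10 fallen. Gaps of 200 or 1000 kb left 8 called genes inside runs, as 500 kb did. No paired analysis was possible because each condition had 1 FPKM value per gene, and for the same reason no replicate could be left out. Depth is unknown, which limits what can be said of the 144 genes under 5 FPKM in EtOH and the 137 in 4OHT.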
